A study of Homo sapiens with 20 samples.

Results

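DROSHA-p140 is a shorter form of the nuclease DROSHA, and the data here are the miRNAs of DROSHA knockout HCT116 cells that had been given this form back. The comparison is of 3 libraries labelled DROSHA knockout with DROSHA-p140 and the only library labelled DROSHA knockout with GFP, 4 of the 20 libraries of the series. It asks which miRNAs the short form can make when it is the only DROSHA form, and which stay near the knockout level. Small RNA was sequenced and counted per mature miRNA. HCT116 is a human colon cancer line.

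The 4 libraries came from cells without endogenous DROSHA, so GFP is the control for p140. Beside them stand 3 libraries of the same knockout given full-length DROSHA, 1 of untreated wild-type HCT116 cells and 3 of wild-type cells kept for 72 hr in 9.1% fetal bovine serum (FBS). Neither the promoter and level of the added DROSHA forms, nor whether the knockout line is 1 clone, is given in the sources used here. Members are miRNAs that wild-type cells express. Of 2588 mature miRNAs, 221 averaged at least 100 CPM (counts scaled to a common total of miRNA reads) in the 9.1% FBS libraries and stood on neither of 2 lists of miRNAs made or kept without DROSHA. These 221 are called evaluated below. With 1 knockout library there is no test against it, and values are given as ranges with exact 95% counting intervals, which cover counting error only. Whether the replicates were separate cultures is not stated, so p-values for p140 against full-length DROSHA measure only the spread between these libraries.

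DROSHA, with its partner DGCR8, cuts the miRNA hairpin out of the primary transcript in the nucleus, and DICER then trims it to the mature miRNA. Many hairpins lie in introns of protein-coding or non-coding genes, others in exons or in clusters on 1 transcript. Mirtrons are released by splicing and a few hairpins form at capped transcript starts, so these miRNAs need no DROSHA. The short form lacks the proline-rich disordered domain named in the series' title.

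Mature sequences are shown for pairs that share a seed and for the miR-200 family, since the results below turn on them. The seed, bases 2 to 8, is in capitals, and sequences are from RefSeq on GRCh38.p14. miR-222-3p and miR-221-3p share a seed and an intron of MIR222HG on chromosome X:
miR-222-3p: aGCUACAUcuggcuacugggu
miR-221-3p: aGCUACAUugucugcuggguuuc
miR-301a-3p and miR-454-3p share a seed and lie in SKA2 introns on chromosome 17:
miR-301a-3p: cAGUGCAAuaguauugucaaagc
miR-454-3p: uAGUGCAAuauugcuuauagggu
miR-19b-3p and miR-19a-3p share a seed, and over their 23 bases differ by 1 substitution, C11U (miR-19b-3p first, counted from its 5′ end). miR-19a-3p comes from MIR17HG only, while miR-19b-3p has 2 hairpins, of which the one on chromosome 13 is in MIR17HG:
miR-19b-3p: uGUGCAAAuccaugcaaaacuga
miR-19a-3p: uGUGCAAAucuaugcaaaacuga
The miR-200 family has 2 seeds, and its genes lie on chromosomes 12 and 1. Its main arms except miR-429 are:
miR-200c-3p: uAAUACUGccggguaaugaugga
miR-200b-3p: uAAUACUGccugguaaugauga
miR-141-3p: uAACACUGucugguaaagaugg
miR-200a-3p: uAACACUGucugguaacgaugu
On the minus strand of chr17, miR-301a-3p is at chr17:59151149-59151171 and miR-454-3p at chr17:59137787-59137809. On the minus strand of chrX, miR-222-3p is at chrX:45747036-45747056 and miR-221-3p at chrX:45746180-45746202. Hairpins, the substrates that DROSHA cuts, are shown for these 4 with the counted arm in capitals:
MIR301A: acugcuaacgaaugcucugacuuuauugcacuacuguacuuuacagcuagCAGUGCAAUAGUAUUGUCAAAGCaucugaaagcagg
MIR454: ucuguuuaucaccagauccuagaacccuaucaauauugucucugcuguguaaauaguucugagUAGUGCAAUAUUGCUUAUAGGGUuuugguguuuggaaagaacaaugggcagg
MIR222: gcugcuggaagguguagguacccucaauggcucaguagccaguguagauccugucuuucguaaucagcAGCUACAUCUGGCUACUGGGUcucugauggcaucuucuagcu
MIR221: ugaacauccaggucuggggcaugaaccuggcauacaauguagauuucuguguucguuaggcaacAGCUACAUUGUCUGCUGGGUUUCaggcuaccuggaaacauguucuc
Both hairpins of a pair carry the shared seed in the 3p arm. miR-374a-5p and miR-186-5p are described by name.

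The libraries differed in depth and composition, which touches every value below. The knockout held 38288 miRNA reads, the p140 libraries 305602 to 327013 and the full-length libraries 764016 to 873719, so 3 knockout reads are worth 78.4 CPM. The list of DROSHA-independent miRNAs (mirtrons, miR-320a and miR-484) took 69.7% of knockout reads (exact Clopper-Pearson interval 69.3 to 70.2) and 21.0, 18.9 and 7.04% of reads in p140 replicates 1, 2 and 3. Its mean was 15.7% ± 7.55 (SD, n = 3) with p140 and 4.09% ± 1.19 (SD, n = 3) with full-length DROSHA. The share was lower in every p140 library than in the knockout and higher than in every full-length library. Reads outside this list and the list of miRNAs kept without DROSHA made up 18.8% in the knockout and 75.5 to 91.5% with p140. Replicate 3 stood apart from replicates 1 and 2 with p140: chi-square per degree of freedom was 88.9 and 67.3 against 4.38 between the first pair, and 38.5 and 36.4 against 3.57 with full-length DROSHA.

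**Figure D1:**
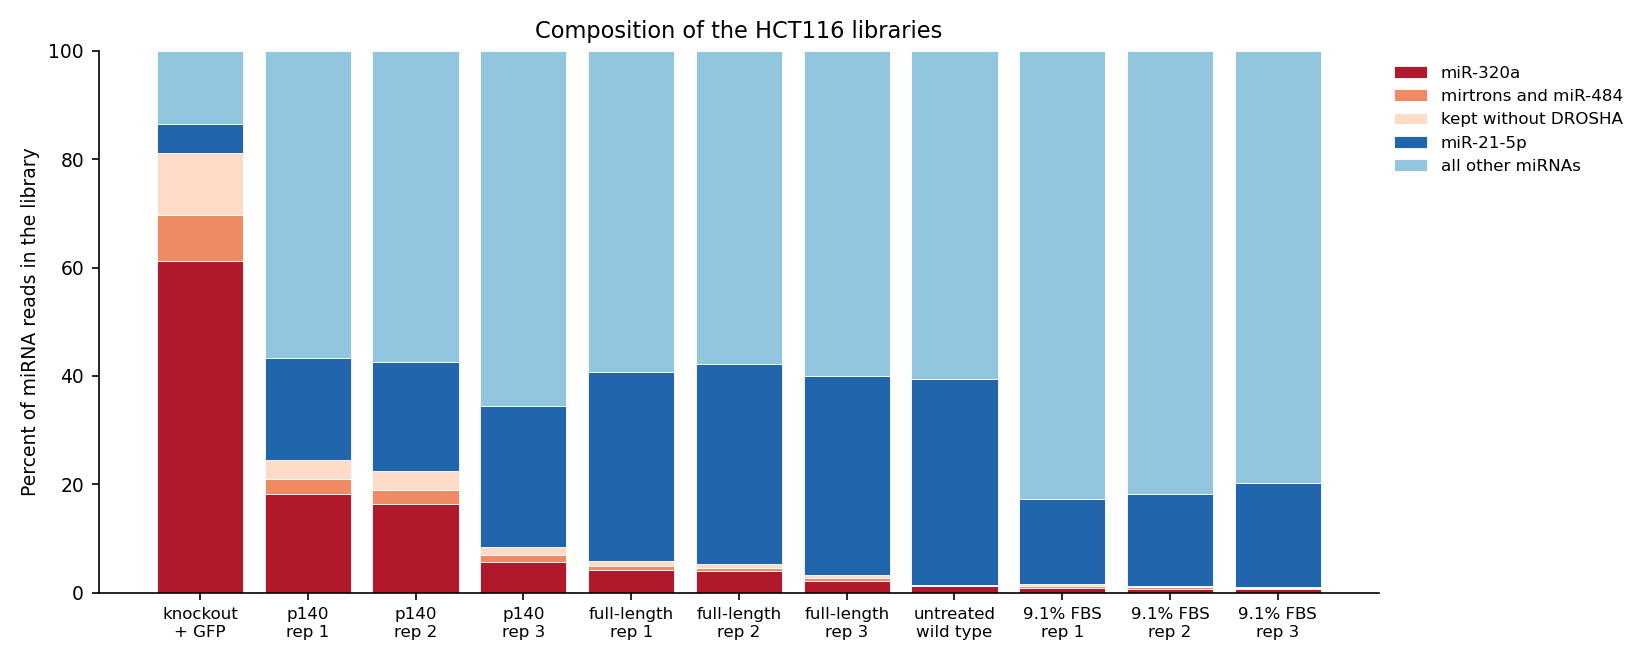
Percent of miRNA reads (y axis) in each of 11 HCT116 libraries (x axis), split into miR-320a, the other DROSHA-independent miRNAs, miRNAs kept without DROSHA, miR-21-5p and all others. DROSHA-independent miRNAs fill 69.7% of the knockout bar, 7.04 to 21.0% of the p140 bars and 2.74 to 4.98% of the full-length bars.

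The other reads of the knockout differed in makeup from those of the rescued libraries. The miR-200 family, which represses the ZEB factors and marks epithelial cells, made up 2.65% of them in the knockout (interval 2.30 to 3.05), 0.0254 to 0.0317% with p140 and 0.0301 to 0.0388% with full-length DROSHA. Wild-type libraries held 4.89% (untreated) and 4.12 to 4.54% (9.1% FBS). In the other direction, 5 miRNAs at least 2-fold higher with full-length DROSHA than in every wild-type library (miR-181a-3p, miR-10a-5p, miR-30a-5p, miR-196b-5p and miR-503-5p) made up 0.653% of the knockout's other reads (interval 0.480 to 0.868), 1.43 to 1.58% with p140 and 0.548% in untreated wild type. In the 9.1% FBS libraries these 5 made up 0.419 to 0.462%, and with full-length DROSHA 1.53 to 1.69%. On the miR-200 set the knockout lay between untreated wild type and the rescued libraries. On the second set the knockout's interval covered untreated wild type, lay above every 9.1% FBS library and lay below both rescues. That set was picked by its full-length and wild-type values, so the gap between those groups was fixed by the choice. The 70 evaluated miRNAs with at least 10 knockout reads were picked by their levels in 9.1% FBS and the knockout. Over them Spearman's rho of the knockout was 0.865 with untreated wild type and 0.775 to 0.786 with 9.1% FBS. It was 0.687 to 0.697 with p140 and 0.726 to 0.750 with the full-length form. Pearson's r of log2 shares was 0.705, 0.758 to 0.764, 0.572 to 0.626 and 0.554 to 0.611 in the same order. The ranking of the groups thus depended on the measure. This describes miRNAs of 1 knockout library, which share its depth and families. Whether that library holds reads of wild-type cells was not tested, and every ratio over the knockout below is subject to this. In bulk RNA, fewer cells with a miRNA and less of it per cell cannot be told apart. Of the colon epithelial markers, miR-192-5p had 0 knockout reads and 9.77, 9.82 and 21.4 CPM with p140. miR-194-5p had 52.2 CPM (2 reads) in the knockout and 127, 105 and 187 CPM with p140. Markers of other cells were scarce. The 7 blood miRNAs had 0 knockout reads and 3, 4 and 18 reads with p140, and the 8 muscle and neural ones 1 and 13, 21 and 19. The 7 fibroblast and smooth muscle miRNAs had 3 knockout reads and 130, 144 and 95 reads with p140. The 17 imprinted and 8 pluripotency miRNAs had 0 knockout reads, with 24, 15 and 28 and 3, 4 and 10 reads with p140. Their part in the results was not tested.

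In CPM, 121 of the 221 evaluated miRNAs (54.8%) were at least 2-fold above the knockout in all 3 p140 libraries. Of these 121, 59 had under 10 knockout reads. A call of below also needed at least 10 knockout reads, which 70 miRNAs had, so the 2 counts do not rest on equal rules. Among those 70, 5 (2.26% of the 221) were at least 2-fold below the knockout in all 3, and 3 lay within 2-fold or were mixed. The remaining 92 had under 10 knockout reads and were not resolved at this depth. Knockout values under 3 reads were set to 3 reads. The median evaluated miRNA had a log2 ratio of p140 over knockout of 1.51, reached 54.7% of its level in 9.1% FBS and 76.2% of its level with full-length DROSHA. In the knockout that median was 10.3% of the 9.1% FBS level. Among the 124 miRNAs at 500 CPM or more in 9.1% FBS, 95 were above the knockout, and among the 97 weaker ones 26 were. Of the 70 with at least 10 knockout reads, 62 were above. Full-length DROSHA placed 156 of the 221 (70.6%) above the knockout by the same rule and 5 (2.26%) below it. That comparison uses the same knockout library, so the counts are set side by side only.

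CPM ratios depend on how much of each library the DROSHA-independent list fills. With every library scaled to that list, 177 of 221 (80.1%) were above the knockout with p140, 3 (1.36%) below, and the median log2 ratio was 4.12. The list's own output per cell was not measured. miRNAs just inside the 2-fold rule in CPM were miR-28-3p, miR-574-3p and miR-532-5p at a lowest ratio of 2.005, and just outside was miR-132-3p at 1.995.

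**Figure D2:**
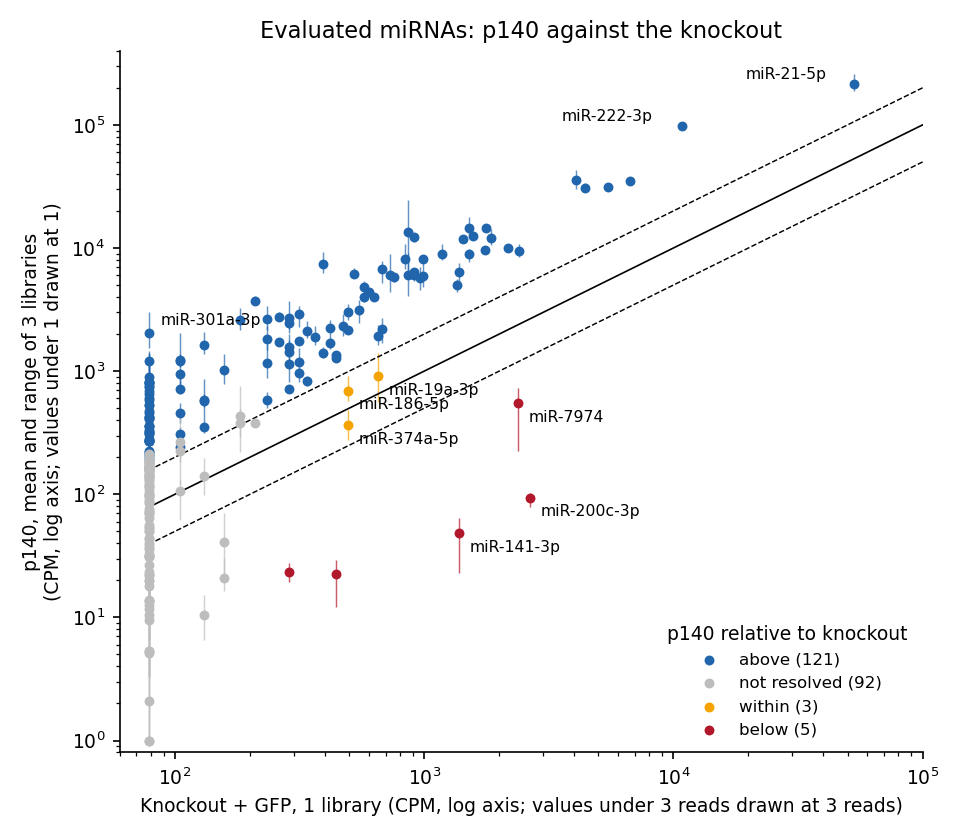
Mean CPM with p140 (y axis, log; bars from the lowest to the highest of 3 libraries) against CPM in the knockout library (x axis, log; values under 3 reads at 3 reads) for the 221 evaluated miRNAs, with lines of equality and 2-fold. The 121 blue points lie above the upper line, and miR-200c-3p, miR-141-3p and miR-7974 are among the 5 red points below the lower one.

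The most abundant miRNAs with p140 were all above the knockout. miR-21-5p, an oncogenic miRNA from an exon of VMP1, had 188173, 201717 and 259650 CPM in p140 replicates 1, 2 and 3 against 52915 CPM (2026 reads, interval 50693 to 55204) in the knockout. Each p140 library was 3.56- to 4.91-fold higher, the smallest ratios among the 10 most abundant. Full-length libraries held 348056, 367338 and 366118 CPM, above every p140 library, and the log2 difference of p140 from full-length was -0.83 ± 0.11 (edgeR quasi-likelihood test, Benjamini-Hochberg adjusted p = 0.000925, lower in 3 of 3 libraries). miR-222-3p, which represses the cell cycle inhibitor p27, had 103309, 101141 and 91293 CPM with p140 and 10865 CPM (416 reads, interval 9851 to 11954) in the knockout, 8.40- to 9.51-fold higher. Its seed mate miR-221-3p had 35002, 34391 and 35919 CPM against 6686 CPM (256 reads, interval 5894 to 7554), 5.14- to 5.37-fold higher. miR-222-3p thus exceeded the knockout by more than its neighbour did, and the ranges of the 2 ratios do not overlap.

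miR-29a-3p, which targets collagen and DNA methyltransferase transcripts, had 30193, 35098 and 42711 CPM with p140 against 4074 CPM (156 reads), and miR-29b-3p 6300.3, 9349 and 24736 CPM against 862 CPM (33 reads). Replicate 3 held far more miR-29b-3p than the other 2, so its ratio spans 7.31- to 28.7-fold. let-7a-5p, of the family that represses RAS and HMGA2, had 32670.5, 29565 and 31439 CPM against 5459 CPM (209 reads). miR-31-5p, from MIR31HG, had 29288, 28832 and 33910 CPM against 4414 CPM (169 reads). These 2 were 5.42- to 5.99-fold and 6.53- to 7.68-fold above the knockout, with close replicates. miR-16-5p, which represses G1 cyclins, had 12747, 12713 and 17871 CPM against 1515 CPM (58 reads). miR-103a-3p, from introns of pantothenate kinase genes, had 14636, 13966 and 14623 CPM against 1776 CPM (68 reads). miR-93-5p, from an intron of MCM7, had 12233, 13662 and 11636 CPM against 1567 CPM (60 reads). Every p140 library exceeded the upper knockout interval for all 10 of these miRNAs.

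The largest ratios over the knockout belonged to miRNAs of several hosts. miR-301a-3p, in an intron of SKA2, had 1579, 1548 and 3003 CPM with p140 against 78.4 CPM (3 reads, interval 16.2 to 229), so the pooled ratio was 26.3 with a counting interval of 9.0 to 128. miR-222-5p, the other arm of the miR-222 hairpin, had 3497, 3599 and 4079 CPM against 209 CPM (8 reads, interval 90.2 to 412) and was 16.7- to 19.5-fold higher. miR-22-3p, from an exon of its non-coding host MIR22HG, had 6675, 6312 and 9357 CPM against 392 CPM (15 reads, interval 219 to 646) and was 16.1- to 23.9-fold higher. All 3 lay above the knockout's interval in each library.

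miR-181a-5p had 12106, 13338 and 11219.7 CPM with p140 against 914 CPM (35 reads, interval 637 to 1271), 12.3- to 14.6-fold higher, and above full-length (8875, 8631 and 6941 CPM) and 9.1% FBS (3869, 3709 and 3813 CPM) in every library. Against full-length DROSHA its log2 difference was 0.51 ± 0.15 (edgeR, adjusted p = 0.0174, higher in 3 of 3), a call kept under 4 of 11 alternatives. With libraries sized by the DROSHA-independent list it was -1.11. miR-203a-3p, which represses p63 in skin, had 2172, 2454 and 3245 CPM against 183 CPM (7 reads), 11.9- to 17.7-fold higher. miR-30c-5p had 5877, 5710.0 and 6828 CPM against 522 CPM (20 reads), 10.9- to 13.1-fold higher. miR-126-3p, from an intron of EGFL7 and best known from endothelium, had 1426, 1381 and 2089 CPM against 131 CPM (5 reads). miR-324-5p had 1026, 1116 and 1453 CPM against 78.4 CPM (3 reads), and miR-671-5p, from an exon of CHPF2, 1381, 1162 and 1083 CPM against 104 CPM (4 reads). These last 3 rest on 3 to 5 knockout reads, and their pooled ratios of 12.6, 15.4 and 11.5 have counting intervals from 4.49 to 74.6 in all. miR-361-5p, from an intron of CHM, had 0 knockout reads and 876, 812 and 991 CPM with p140. Against a floor of 3 knockout reads it was at least 10.4-fold higher in each library.

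**Figure D3:**
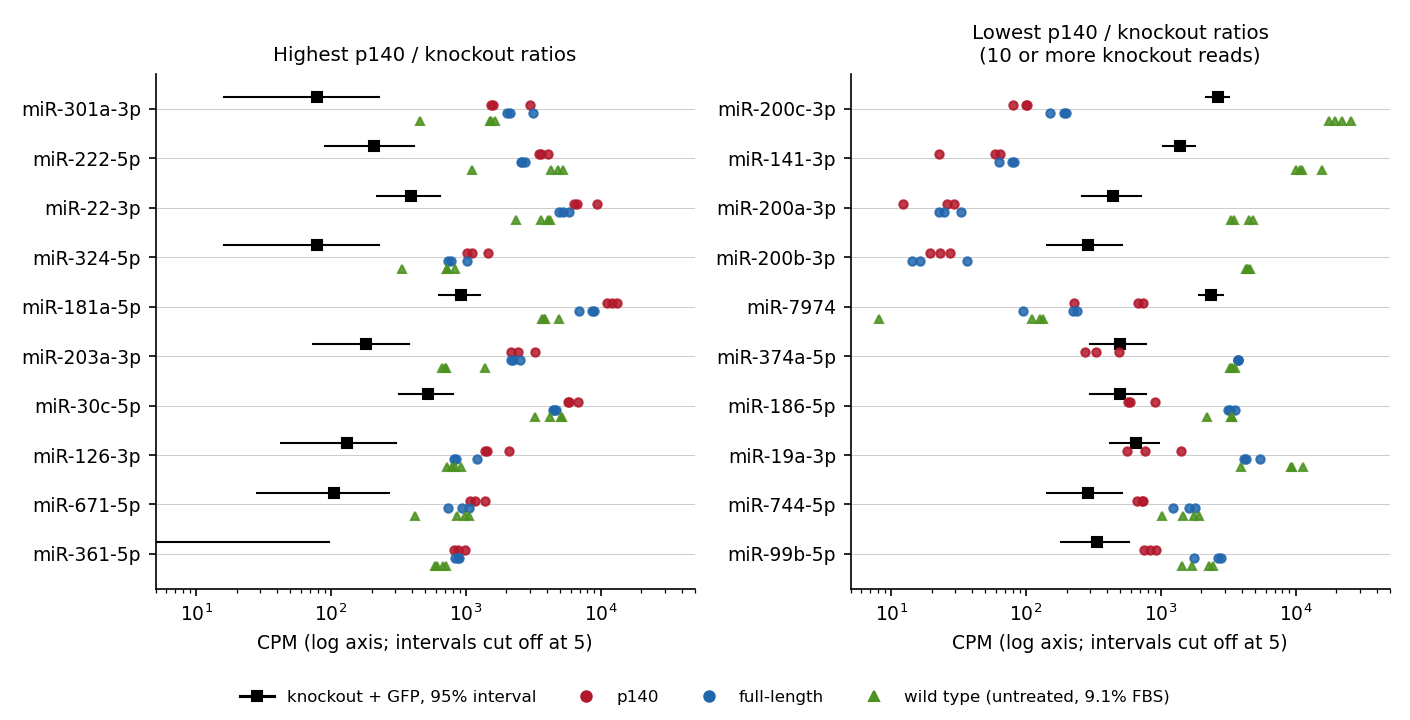
CPM (x axis, log) of the 10 miRNAs with the highest and the 10 with the lowest ratios of p140 over knockout, for the knockout (squares, with 95% counting intervals; no square for miR-361-5p at 0 reads), 3 p140 and 3 full-length libraries (circles) and 4 wild-type libraries (triangles). For miR-374a-5p the p140 points (275 to 486 CPM) lie within or just under the knockout's interval, and the full-length points lie near 3749 CPM.

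Only 3 evaluated miRNAs with at least 10 knockout reads stayed within 2-fold or were mixed, and all 3 were several-fold higher with full-length DROSHA. miR-374a-5p, from an intron of the non-coding gene FTX on the X chromosome, had 329, 275 and 486 CPM with p140 and 496 CPM (19 reads, interval 299 to 775) in the knockout. Full-length libraries held 3730.2, 3758 and 3760.4 CPM and 9.1% FBS libraries 3248, 3367 and 3575. p140 thus gave 9.69% of the full-length level, a log2 difference of -3.47 ± 0.20 (edgeR, adjusted p = 4.96e-05, lower in 3 of 3). miR-186-5p, from an intron of ZRANB2, had 589, 576 and 914 CPM with p140, 496 CPM (19 reads, interval 299 to 775) in the knockout and 3289, 3138 and 3560.1 with full-length DROSHA. Its difference from full-length was -2.36 ± 0.18 (edgeR, adjusted p = 0.000137, lower in 3 of 3).

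miR-19a-3p, an oncogenic member of the miR-17/92 cluster, had 563, 769 and 1404 CPM with p140 against 653 CPM (25 reads, interval 423 to 964). Replicate 1 lay under the knockout value and replicate 3 at 2.15 times it, so the call is mixed. Full-length libraries held 4270.0, 4162 and 5406 CPM, a log2 difference of -2.45 ± 0.30 (edgeR, adjusted p = 0.000737, lower in 3 of 3). miR-19b-3p, 1 substitution apart as printed above, had 4588, 5641 and 7036 CPM against 966 CPM (37 reads) and was 4.75- to 7.28-fold above the knockout. p140 gave 70.8% of the full-length level for miR-19b-3p and 19.8% for miR-19a-3p. miR-19b-3p has a second hairpin outside the cluster, and reads of the 2 hairpins cannot be told apart.

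Scaled to the DROSHA-independent list, all 3 were above the knockout, miR-374a-5p 2.04- to 9.70-fold, miR-186-5p 3.94- to 18.2-fold and miR-19a-3p 2.86- to 21.3-fold. Next in order came miR-744-5p, in an intron of MAP2K4, and miR-99b-5p, in an intron of SPACA6. miR-744-5p had 726, 671 and 734 CPM against 287 CPM (11 reads, interval 143 to 514) and was 2.33- to 2.55-fold higher. miR-99b-5p had 915, 838 and 755 CPM against 339.5 CPM (13 reads, interval 181 to 581) and was 2.22- to 2.69-fold higher. Both fell against full-length DROSHA, by 1.20 ± 0.17 and 1.60 ± 0.20 on the log2 scale (edgeR, adjusted p = 0.00141 and 0.000925, lower in 3 of 3 for each).

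The 5 miRNAs called below the knockout in CPM were 4 of the miR-200 family and miR-7974. miR-200c-3p had 101, 101 and 79.5 CPM with p140 and 2664 CPM (102 reads, interval 2173 to 3233) in the knockout, and 197, 192 and 152 CPM with full-length DROSHA against 25988 in untreated wild type. Its cluster mate miR-141-3p had 22.8, 58.9 and 64.2 CPM with p140, 1384 CPM (53 reads, interval 1037 to 1810.2) in the knockout and 11167 in untreated wild type. miR-200a-3p had 26.0, 29.5 and 12.2 CPM against 444 CPM (17 reads, interval 259 to 711), and miR-200b-3p 19.5, 22.9 and 27.5 CPM against 287 CPM (11 reads, interval 143 to 514). Neither rescue brought this family near wild type, and in CPM both were under the knockout. On the list's scale 3 of the 4 were still below the knockout in each p140 library, and miR-200b-3p was 0.225- to 0.948-fold of it. With full-length DROSHA 0 of the 221 evaluated miRNAs were called below the knockout on that scale. miR-200c-3p was lower with p140 than with full-length DROSHA (-1.01 ± 0.25 on the log2 scale, edgeR adjusted p = 0.0111, 3 of 3).

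miR-7974, annotated in an intron of ZNF653, had 736, 677 and 226 CPM with p140 against 2377 CPM (91 reads, interval 1914 to 2917) in the knockout, and 224, 239 and 95.5 CPM with full-length DROSHA. It had 8.17 CPM in untreated wild type and 128, 133 and 110.0 CPM in 9.1% FBS, so the wild-type groups differed. On the list's scale it was 0.942- to 1.05-fold of the knockout. Replicates 1 and 2 of p140 lay above every full-length library and replicate 3 within their range. Against full-length DROSHA it rose by 1.51 ± 0.52 on the log2 scale (edgeR, adjusted p = 0.0344, above every full-length library in 2 of 3), a call kept under 5 of 11 alternatives, with a log2 difference of -0.36 to 1.79 over them.

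Another 22 miRNAs at 500 CPM or more in 9.1% FBS were not above the knockout and had under 10 reads in it, so they were not resolved. miR-1296-5p, in an intron of JMJD1C, had 0 knockout reads and 26.0, 9.82 and 24.5 CPM with p140, all under the 78.4 CPM of 3 knockout reads, against 434, 391 and 356 with full-length DROSHA. miR-454-3p had 127, 98.2 and 196 CPM with p140 against 131 CPM (5 reads, interval 42.4 to 305), and 909, 955 and 1008 CPM with full-length DROSHA (-2.87 ± 0.24 on the log2 scale, edgeR adjusted p = 0.000148, lower in 3 of 3). miR-374b-5p, from FTX like miR-374a-5p, had 84.7, 55.6 and 147 CPM with p140 against 78.4 CPM (3 reads, interval 16.2 to 229). miR-128-3p, a brain-enriched miRNA from introns of R3HDM1 and ARPP21, had 374, 350.1 and 413 CPM against 209 CPM (8 reads, interval 90.2 to 412). For miR-454-3p and miR-374b-5p every p140 library lay inside the counting interval of the knockout, and miR-128-3p left it in replicate 3 only. All 4 were lower in every p140 library than in every full-length one. Lower levels than with full-length DROSHA were common: 95 of 213 evaluated miRNAs tested fell (edgeR, adjusted p under 0.05). This does not mark the 4 out. These 4 were chosen after their values were seen.

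The 5 miRNAs with under 10 knockout reads that were lowest relative to 9.1% FBS were miR-141-5p, miR-200c-5p, miR-429, miR-576-5p and miR-548d-3p. miR-141-5p and miR-200c-5p had 0 reads in all 3 p140 libraries, which at 3 reads allows up to 9.82 CPM in the shallowest of them, and 128, 124 and 157 and 159, 156 and 131 CPM in 9.1% FBS. miR-429, of the miR-200 family, had 16.3, 16.4 and 30.6 CPM with p140 and 157 CPM (6 reads) in the knockout. miR-576-5p, in an intron of SEC24B, had 6.51, 3.27 and 6.12 CPM with p140 and 131, 134 and 181 with full-length DROSHA, -4.84 ± 0.40 on the log2 scale (edgeR, adjusted p = 0.000148, lower in 3 of 3). The knockout's single read of it cannot place it. miR-548d-3p, a primate-specific miRNA, had 3.26, 0 and 3.06 CPM with p140, 0 knockout reads and 116, 95.8 and 112 CPM in 9.1% FBS. It was also low in untreated wild type and with full-length DROSHA, at 0.0013% and 0.00109 to 0.00257% of reads outside both lists. In 9.1% FBS it made up 0.0097 to 0.0118% of them.

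Another scale, the share of reads outside both lists, compares the makeup of those reads whatever their total. Evaluated miRNAs gave 5535 of these 7194 reads in the knockout and 225519 of 231775 in p140 replicate 1. The remaining reads thus lower the shares of evaluated miRNAs more in the knockout. By this share 15 of 221 (6.79%) were called above the knockout, at least 2-fold in all 3 p140 libraries, and 8 (3.62%) below. Another 57 with at least 10 knockout reads were within 2-fold or mixed, and 141 with fewer reads were not resolved. Only the call of below needed 10 knockout reads, so these counts do not show which direction was commoner. Unresolved miRNAs could lie at least 2-fold below in all 3 libraries but not above. Examples are miR-454-3p at a ratio of 0.182 to 0.308 and miR-374b-5p at 0.172 to 0.385. miR-21-5p took 28.2% of these reads in the knockout and 24.9, 26.0 and 28.4% with p140. By the lowest of the 3 ratios, miR-301a-3p came first at 4.79- to 7.87-fold, then miR-222-5p at 4.01- to 4.17-fold and miR-22-3p at 3.90- to 4.91-fold. Called below were the 5 named above with miR-374a-5p at a ratio of 0.134 to 0.201, miR-186-5p at 0.281 to 0.378 and miR-19a-3p at 0.215 to 0.441.

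By family, against the 54.8% of all evaluated miRNAs above the knockout in CPM, the miR-29 and miR-30 families were above it in 11 of 11 members and miR-221 and miR-222 in 4 of 4 arms. The families' median log2 ratios were 3.14 and 2.79, against 1.51 over all. The cluster of miR-183, miR-96 and miR-182, known from sensory cells, was above in 3 of 3. There miR-182-5p had 6225, 6024 and 5278 CPM against 757 CPM (29 reads), and miR-96-5p, with 0 knockout reads, 534, 501 and 1174 CPM. let-7 was above in 9 of 14 and the 5 others were not resolved. let-7d-5p had the smallest lowest ratio of the 9, with 1820.1, 1619.8 and 2385 CPM against 653 CPM (25 reads), while let-7g-5p had 8296, 8056 and 10691 against 1175 CPM (45 reads). miR-98-5p, a let-7 relative, had 970.3, 1050.4 and 1529 CPM against 313 CPM (12 reads).

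In the MCM7 intron, 5 of 6 arms of the miR-106b/25 cluster were above the knockout, miR-106b-5p with 4054, 5114 and 5361 CPM against 575 CPM (22 reads). The miR-17/92 cluster was above in 6 of 11, mixed for miR-19a-3p and not resolved in 4. Its miR-92a-3p had 11139, 10491 and 14366 CPM against 1854 CPM (71 reads), and miR-18a-5p 814, 821 and 1801 CPM against 287 CPM (11 reads). Of the miR-15/16 family 5 of 7 were above. There miR-15b-5p, in an intron of SMC4, had 912, 887 and 1673 CPM against 235 CPM (9 reads) and fell against full-length DROSHA (-1.36 ± 0.28 on the log2 scale, edgeR adjusted p = 0.00689, 3 of 3). miR-15a-5p had 221, 308 and 761 CPM against 183 CPM (7 reads) and was not resolved.

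The miR-23/27/24 clusters were above in 5 of 8, with miR-23a-3p at 6164, 5402 and 6425 CPM against 914 CPM (35 reads). At the HOX loci miR-10a-5p and miR-196b-5p were above, at 7147, 6774 and 10715 and 3409, 3082 and 2303 CPM against 836 and 313. Their relative miR-196a-5p, with 156, 134 and 208 CPM and 1 knockout read, was not resolved. miR-34a-5p, a p53 target, had 5193, 7336 and 7868 CPM against 679 CPM (26 reads). Of 20 evaluated members of a list of other abundant miRNAs 19 were above, and of 4 on a list of miRNAs low in both rescues 0 were (miR-375, miR-135b-5p, miR-9-5p and miR-9-3p, a list chosen from these libraries). The miR-200 family was above in 0 of 9, with 4 below and 5 not resolved. These counts describe families whose members share transcripts and seeds.

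Of 35 evaluated miRNAs of the single intronic list 17 (48.6%) were above the knockout, near the 54.8% over all evaluated. The list's median was 42.4% of full-length, against 76.2% over all evaluated. Within it miR-26a-5p had 11949.5, 11371 and 12311 CPM against 1436 CPM (55 reads) and miR-26b-5p 4461, 4041 and 4749 CPM against 601 CPM (23 reads), while miR-590-3p had 81.4, 78.5 and 135 CPM against 52.2 CPM (2 reads) and miR-629-5p 9.77, 3.27 and 24.5 CPM against 26.1 CPM (1 read). Members of this list thus stood at both ends, and miR-590-3p and miR-629-5p were picked after their values were seen. The cluster in CLCN5 was above in 2 of 12 (miR-660-5p at 257, 340.3 and 468 CPM, and miR-532-5p), and 10 of its 12 had 0 knockout reads. The FTX cluster was above in 0 of 4. There miR-421 had 3.26, 9.82 and 27.5 CPM with p140 against 221, 213 and 260.5 with full-length DROSHA (-4.16 ± 0.48 on the log2 scale, edgeR adjusted p = 0.000598, lower in 3 of 3).

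**Figure D4:**
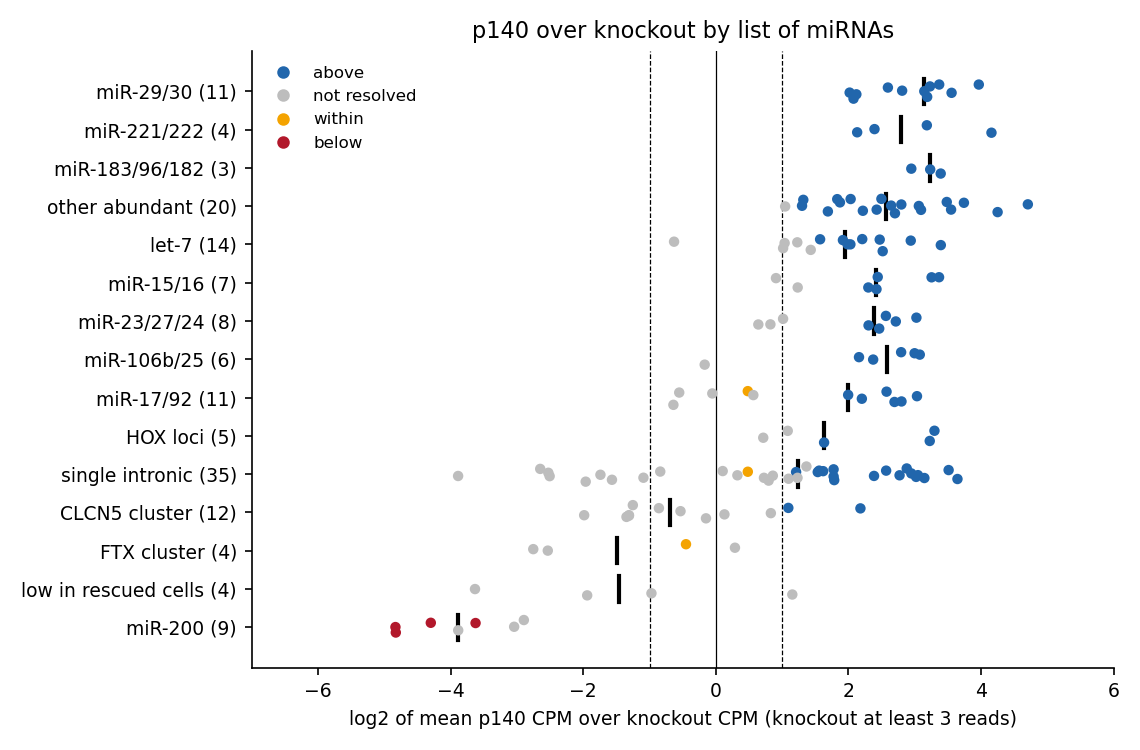
log2 of mean p140 CPM over knockout CPM (x axis; knockout at least 3 reads) for each evaluated miRNA (points, coloured by call) in 15 lists (y axis, number of evaluated members), with list medians as black bars and dashed lines at 2-fold. Every miR-29/30 point lies right of the line and every drawn miR-200 point left of it; 2 of the 9 miR-200 members with 0 p140 reads are not drawn.

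Neighbours cut from 1 transcript differed in how p140 restored them, and their read ratio does not depend on library scaling. The pairs were chosen after values were seen and have no test. In MIR222HG, 33.9, 34.0 and 39.3 reads of miR-221-3p came per 100 of miR-222-3p with p140, against 60.9, 60.6 and 66.3 with full-length DROSHA, 65.6 in untreated wild type and 61.5 (interval 52.5 to 72.1) in the knockout. All p140 values lay below the knockout's interval. In SKA2, whose 2 hairpins start 13378 bases apart, 8.04, 6.34 and 6.52 reads of miR-454-3p came per 100 of miR-301a-3p with p140, and 42.5, 47.0 and 31.7 with full-length DROSHA. The knockout's 5 and 3 reads give 167 (interval 32.4 to 1073), again above the p140 values.

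Within MIR17HG, miR-19a-3p had 12.8, 16.9 and 15.6 reads per 100 of miR-17-5p with p140, 72.8, 79.3 and 57.9 with the full-length form and 89.3 (interval 49.9 to 159) in the knockout. miR-18a-5p had 18.5, 18.0 and 20.0 with p140 against 38.1, 37.4 and 38.9 with full-length. In wild type it had 25.1 (untreated) and 22.8, 22.7 and 28.1 (9.1% FBS), nearer the p140 values, and the knockout, at 39.3 (interval 17.6 to 81.4), covered the p140 values. miR-20a-5p of the same transcript had 92.8, 104 and 102 with p140 and 91.9, 97.5 and 101 with full-length, which overlap. Relative to miR-17-5p, miR-19a-3p and miR-18a-5p were lower in every p140 library than in every full-length one, and miR-20a-5p was not. miR-99b-5p had 39.6, 38.0 and 26.6 reads per 100 of miR-125a-5p with p140, 151, 178 and 93.1 with full-length and 118 (interval 48.9 to 291) in the knockout. miR-15a-5p had 1.74, 2.42 and 4.26 per 100 of miR-16-5p with p140 and 9.26, 10.0 and 13.7 with full-length, though miR-16-5p also has a hairpin in SMC4. miR-25-3p had 53.6, 48.0 and 50.7 per 100 of miR-93-5p with p140 and 97.3, 99.6 and 78.5 with full-length, and the knockout, at 58.3 (interval 37.3 to 90.0), covered the p140 values. For the miR-19a-3p and miR-99b-5p pairs the whole knockout interval lay above the p140 values.

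**Figure D5:**
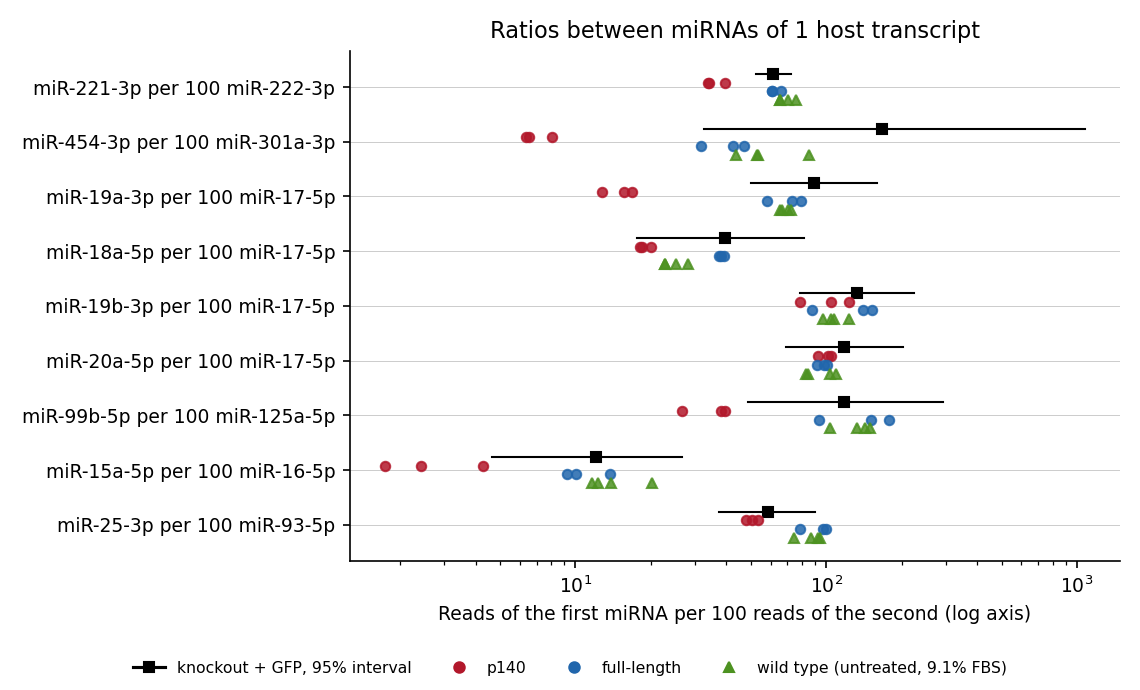
Reads of 1 miRNA per 100 reads of a neighbour of the same host transcript (x axis, log) for 9 pairs, in the knockout (squares, 95% counting intervals), 3 p140, 3 full-length and 4 wild-type libraries. For miR-221-3p per 100 miR-222-3p the p140 points lie at 33.9 to 39.3 and the full-length points at 60.6 to 66.3.

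By where the hairpin lies (GENCODE 29), 72 of 139 intronic miRNAs were above the knockout in CPM, 16 of 24 exonic and 10 of 20 intergenic ones, or 51.8, 66.7 and 50.0% against 54.8% over all evaluated miRNAs. The intronic and intergenic shares are near that background. Their median log2 ratios were 1.32, 1.91 and 1.83. On the list's scale 109, 23 and 14 were above, against 80.1% over all. The 2 intergenic miRNAs called below the knockout are miR-200a-3p and miR-200b-3p. As a percent of full-length the medians were 63.9% for intronic, 106% for exonic and 113% for intergenic miRNAs. At 500 CPM or more in 9.1% FBS, 53 of 72 intronic, 13 of 14 exonic and 10 of 14 intergenic miRNAs were above the knockout, against 95 of 124 over all.

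The replicated comparison of p140 with full-length DROSHA tested 446 miRNAs, of which 139 (31.2%) fell and 127 (28.5%) rose (edgeR, adjusted p under 0.05). With library sizes set to the DROSHA-independent list, 170 fell and 0 rose. The number that rose depended on single libraries: it was 81 and 71 without full-length replicates 2 and 3, and 79 and 191 without p140 replicates 2 and 3. Of the 213 evaluated miRNAs tested, 95 fell and 16 rose. By list, 7 of 14 let-7 members fell and 0 rose, and 22 of 35 of the single intronic list fell and 2 rose. In the CLCN5 cluster 8 of 12 fell and in the FTX cluster 4 of 4. Of the miR-29 and miR-30 families 2 of 11 fell and 2 rose. Among intronic ones 75 of 137 fell and 11 rose, among exonic ones 6 of 24 fell and 2 rose, and among intergenic ones 3 of 16 fell and 1 rose. Of the 8 miRNAs called below, within 2-fold of or mixed around the knockout, 4 fell (miR-200c-3p, miR-374a-5p, miR-186-5p and miR-19a-3p) and miR-7974 rose. miR-222-3p rose (0.44 ± 0.14 on the log2 scale, edgeR adjusted p = 0.0258, higher in 3 of 3), a call kept under 5 of 11 alternatives and turned to -1.18 with the list's sizes. miR-221-3p fell (-0.38 ± 0.10, edgeR adjusted p = 0.0158, lower in 3 of 3) and kept the call under 8 of 11. miR-301a-3p and miR-22-3p missed the threshold (edgeR adjusted p = 0.274 and 0.0601) and passed it with replicate number as a block (adjusted p = 0.00349 at -0.39, and 0.0014 at 0.38 on the log2 scale). Over all alternatives their adjusted p ranged from 0.00101 to 0.603 and from 0.0014 to 0.769.

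miRNAs made or kept without DROSHA stood the other way in CPM. Of 28 on the 2 lists with at least 10 knockout reads, all 28 were lower with p140 in all 3 libraries, by 1.76- to 5.11-fold on the mean. Another 43 miRNAs on neither list had at least 10 knockout reads but under 100 CPM in 9.1% FBS. All 43 were also lower in CPM in every p140 library, so lower CPM does not mark the lists out. Both sets were picked by their knockout reads, and the 43 also by low wild-type levels. These counts are thus partly fixed by the choice. miR-320a, whose hairpin forms at a capped transcript start, had 181479, 162970 and 56618 CPM with p140 against 611575 CPM (23416 reads, interval 606672 to 616462). The mirtron miR-877-5p, from ABCF1, had 9302, 8671 and 2951 CPM against 30662 CPM (1174 reads, interval 28958 to 32438). miR-484, from the start of NDE1, had 14886, 13275 and 8660.2 CPM against 40378 CPM (1546 reads, interval 38428 to 42398). Replicate 3 was the lowest p140 library for all 3. Scaled to the DROSHA-independent list the mean ratios of the 28 were 0.866 to 2.76 with a median of 1.12, and 22 of 28 stayed within 2-fold in all 3 libraries. Members of that list are divided by a sum that includes them, and miR-320a gave 23416 of its 26699 knockout reads. Ratios near equality are thus partly set by the scaling. Highest on that scale was miR-4454 (1.70- to 3.48-fold), and miR-484 was 1.21- to 2.12-fold.

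Sequence features the calls did not use were compared over the 200 of 221 evaluated miRNAs matched to RefSeq, as descriptions without a test. Over all of them, the 109 above the knockout and the 85 not resolved had the same median mature GC content, 47.8%. Their first base was U in 51.4% and 40.0%, and their median hairpin GC content 50.9% and 52.8%. The abundant miRNAs differed from this. At 500 CPM or more in 9.1% FBS, the 25 that were not above the knockout had a median mature GC content of 36.4%, against 47.6% in the 85 that were. Among these the first base was U in 76.0% and 57.6%. Median hairpin GC content was 48.2% and 50.5%, and median hairpin length 89 and 85 bases. The mature GC gap was thus seen among abundant miRNAs and not over all, while first base U and hairpin GC ran the other way over all. Members of 1 family share bases, so these are not independent.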

How the data were processed

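Per the labels' protocols, RNA was extracted with TRIzol, mixed with spike-in RNAs, size-selected on a gel, ligated to randomized adaptors and sequenced on a MiSeq. Cutadapt, STAR and bedtools were used with hg38, per the submitters' processing notes, but neither versions nor a rule for reads with several matches is given in the sources used here. Raw counts were deposited by the authors, with 1 value for each pair of a mature miRNA and a hairpin. Of the 221 evaluated miRNAs 27 have several hairpins, and the highest copy was kept. Each library's counts were scaled to CPM, with a knockout floor of 3 reads. An evaluated miRNA was called above the knockout where all 3 p140 libraries were at least 2-fold higher. It was called below where all 3 were at least 2-fold lower and the knockout had at least 10 reads. The rest were not resolved under 10 knockout reads, and within 2-fold or mixed at 10 or more. Libraries held 38288 to 1927438 reads. p140 and full-length DROSHA were compared with the quasi-likelihood test of edgeR 4.0.16 (R 4.3.3), after TMM scaling and a filterByExpr minimum of 10 counts. The p-values of 446 miRNAs were two-sided, adjusted by Benjamini-Hochberg and read at 0.05. The fit was checked on simulated counts with the same dispersion for every miRNA. They held no shift of replicate 3 and no pairing, so the check does not cover these features of the libraries. DESeq2 1.42.0 was an alternative. The main fit had no replicate block, so its p-values do not use any pairing. A fit with replicate numbers, taken from the titles, as a block was another alternative. Deviations of same-numbered libraries from their group means correlated at 0.474, 0.362 and 0.676, all over 0.1. Replicates 1 and 2 crossed gave 0.297 and 0.370, so the values set replicate 3 apart and do not tell 1 from 2. Hairpins were placed on GENCODE 29 by strand, and 200 of the 221 matched RefSeq sequences.

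The miRNAs named were the 10 most abundant with p140, the 10 with the largest lowest ratio, the 10 with the smallest highest ratio at 10 or more knockout reads, the 5 lowest against 9.1% FBS at fewer reads, leading members of each list, and members of the DROSHA-independent lists. Members, lists and rules were chosen with earlier results of these data known. The 19 miRNAs given a fold change against full-length DROSHA were chosen after their values were seen.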

Additional observations from a re-analysis of the deposited data

How the results depend on the processing

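Counts moved with the scaling and with the filters. Relative to CPM, the log2 ratios shifted by 2.15 on the DROSHA-independent list, 1.51 with TMM and -2.12 over reads outside both lists. The number of miRNAs called below the knockout was 3 on the list's scale, with or without miR-320a. It was 8 over reads outside both lists, 14 with 374 miRNAs at 20 CPM or more, and 3 if 30 knockout reads were needed. It was 1 among the 201 whose full-length mean lay within 4-fold of 9.1% FBS, an alternative chosen after seeing the data. The number above was 15 over reads outside both lists and 75 at 4-fold. The number within 2-fold or mixed was 57, 19 and 0 over reads outside both lists, at 4-fold and at 30 knockout reads, and 5 of 207 with hairpin copies summed. Class medians on the list's scale were 4.0, 4.56 and 4.38 for intronic, exonic and intergenic miRNAs. The DROSHA-independent share with p140 was 2.30% without miR-320a. Leaving out 1 p140 library gave 122 to 127 above, 5 below, 3 within, a share of 13.0 to 20.0%, and class medians of 1.20 to 1.44, 1.62 to 2.05 and 1.74 to 1.89.

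Among the named miRNAs, log2 ratios over the knockout changed sign for miR-7974 (0.0088 on the list's scale) and for miR-374a-5p, from -0.45 to 2.22 on that scale, 1.71 without miR-320a and 1.06 with TMM. Over reads outside both lists they did so for miR-21-5p (-0.091), miR-744-5p (-0.80), miR-99b-5p (-0.80), miR-186-5p (from 0.48 to -1.65) and miR-19a-3p (from 0.48 to -1.67). Against full-length DROSHA with the list's library sizes, miR-222-3p (-1.18), miR-181a-5p (-1.11), miR-22-3p (-1.11) and miR-7974 (-0.36) turned, and 0 miRNAs rose. Leaving out 1 library in turn, 71 to 191 rose and 108 to 197 fell. Without replicate 3 of both groups, chosen after seeing the data, 178 fell and 188 rose. With the replicate block, for paired numbers, 169 fell and 157 rose. The causes were not tested. The knockout's 38288 reads limit what can be placed: 43 evaluated miRNAs had 0 reads there.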
